A study of Homo sapiens with 9 samples.

Results

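LIM1215-R2 and LIM1215-R1 are cetuximab-resistant derivatives of the same colorectal cancer cell line, and their transcriptomes were compared directly with each other. The comparison used the 3 LIM1215-R2 and the 3 LIM1215-R1 libraries, 6 of the 9 libraries of the study, and each gene with at least 10 counts summed over these 6 libraries was tested. The files list 58920 genes, 27070 of them had a count in at least 1 of the 6 libraries, and 17687 were tested. LIM1215 is a RAS wild-type human colorectal cancer line. LIM1215-R1 and LIM1215-R2 were selected from it independently under rising cetuximab, while LIM1215-parental cells were carried along without the antibody. RNA was taken from all lines in basal culture, without treatment. Neither resistant line is a clone, and the study describes mixed populations in which a part of the cells carries an activating HRAS mutation, at a different position in each line. The replicates are called technical by the study, so that p-values here measure the spread between libraries, and any effect of the culture dish or harvest cannot be told apart from the line itself.

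Cetuximab is an antibody against EGFR, the receptor tyrosine kinase that drives the RAS-RAF-MEK-ERK cascade in colonic epithelium, and it keeps ligands such as epiregulin and amphiregulin from binding. Resistant cells often carry activating lesions in this cascade or use other receptors. Colorectal epithelium also secretes gel-forming mucins from goblet cells and chemokines that attract leukocytes, and it keeps its stem cells through Wnt signalling. The transcription factor p53 raises a set of cell cycle inhibitors and death genes under stress.

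Total counts of the 6 libraries ranged from 15287142 to 16862477, and TMM factors from 0.987 to 1.01. Libraries of the same line correlated at 0.9895 to 0.9912 across genes (log2 CPM, the read count scaled to library depth), and libraries of different lines at 0.9849 to 0.9869. No pair of libraries differed by as little as sampling of reads would give. Of 15 colon epithelial markers, 14 exceeded 1 CPM in every library, and KRT20 was listed at 0 throughout. The summed level of these markers was 17552 to 17901 CPM in LIM1215-R1 against 16021 to 16436 CPM in LIM1215-R2. Most of that sum was KRT8 and KRT18, which were at 7746 to 8084 and 5447 to 5537 CPM in LIM1215-R1 against 7072 to 7224 and 4844 to 5113 CPM in LIM1215-R2. Of the 14 markers tested, 4 were lower, GPA33 was higher and 9 did not pass an adjusted p of 0.01. Among all genes tested, 4.44% were lower and 3.68% higher by this rule. When single libraries were left out, 1 to 6 of these markers were lower. The 21 markers of other cell types (immune, endothelial, fibroblast, muscle, glial, erythroid, liver) summed to 16 to 18.3 CPM in LIM1215-R1 against 11.1 to 14.1 CPM in LIM1215-R2, with 11 to 14 of them at 0, among them PTPRC and CD3E. Most of that sum was CD68, at 11.7 to 14.2 CPM in LIM1215-R1 and 8.56 to 10.5 CPM in LIM1215-R2. The part of these markers in the results below was not tested.

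The lines diverged in few genes by a large amount and in many by a small one. Differentially expressed genes (DEGs) were those with a Benjamini-Hochberg adjusted p of 0.01 or less by edgeR's quasi-likelihood test and a log2 fold change of 1.5 or more in size. There were 155 DEGs, 44 higher and 111 lower in LIM1215-R2, or 0.876% of the genes tested (0.249% higher and 0.628% lower). At the same adjusted p and any size of change, 1436 genes differed, 650 higher and 786 lower, or 8.12% (3.68% higher and 4.44% lower). Of these, 80.6% changed by less than 2-fold, and their median absolute log2 fold change was 0.41. The median over all genes tested was -0.01. Of the DEGs, 137 were protein-coding and 14 long non-coding RNA genes by the RefSeq annotation, and 123 had a mean of at least 1 CPM in the line where they were higher. Since these are bulk samples, fewer cells that express a gene and less RNA per cell cannot be told apart in any of these differences.

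**Figure D1:**
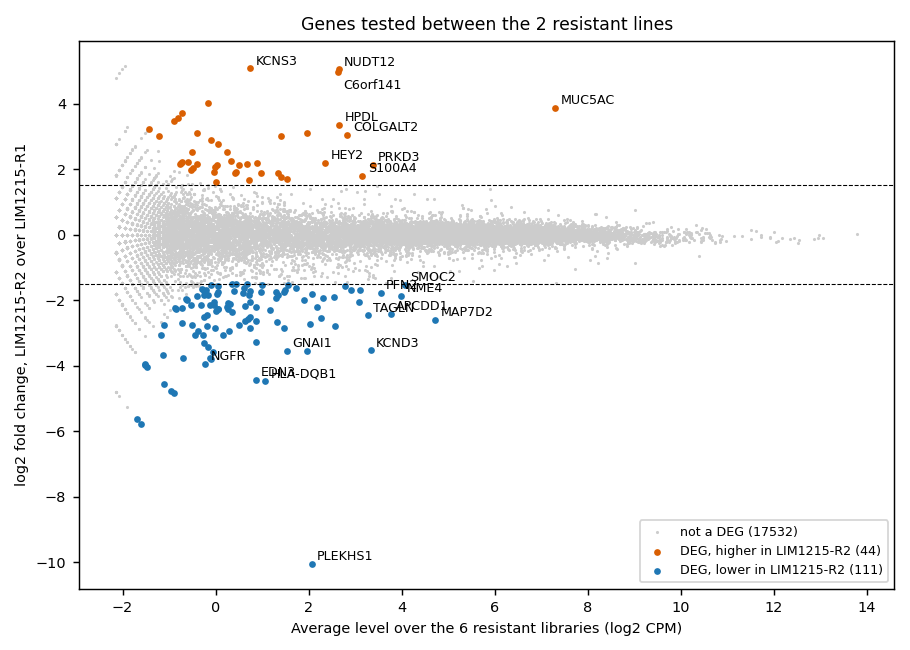
Average level over the 6 resistant libraries (x axis, log2 CPM) against the log2 fold change of LIM1215-R2 over LIM1215-R1 (y axis) for the 17687 genes tested, with DEGs coloured and dashed lines at the fold change threshold of 1.5. The 44 DEGs higher in LIM1215-R2 are led by KCNS3, NUDT12 and C6orf141, with MUC5AC at the highest average level, and the 111 lower ones are led by PLEKHS1.

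Among the DEGs higher in LIM1215-R2, the gastric gel-forming mucin MUC5AC had the most counts. Its level was 18.6, 21.3 and 20.4 CPM in the 3 LIM1215-R1 libraries and 295, 294 and 298 CPM in the 3 LIM1215-R2 libraries. The lines were therefore 14.7-fold apart with a narrow spread in each (log2 fold change 3.87, SE 0.06, adjusted p = 5.46e-25). LIM1215-parental cells had 18.6, 26.8 and 21.4 CPM, close to LIM1215-R1. MUC5AC lies on chromosome 11 from 1157953 to 1201138 (GRCh38.p14), beside MUC6, and reads of repetitive mucin exons may be shared within the family, which was not tested.

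NUDT12, a peroxisomal hydrolase of NADH, had 0.307, 0.439 and 0.313 CPM in LIM1215-R1 against 13.1, 13.1 and 9.6 CPM in LIM1215-R2. The lines did not overlap (log2 fold change 5.05, SE 0.24, adjusted p = 4.21e-14), and LIM1215-parental libraries had 15.4, 12.1 and 15.7 CPM, near LIM1215-R2. HPDL, a mitochondrial dioxygenase-like protein, followed the same order, with 1.23, 1.07 and 1 CPM in LIM1215-R1, then 11.1, 11.6 and 11.2 CPM in LIM1215-R2 and a parental mean of 13.3 CPM (log2 fold change 3.35, SE 0.17, adjusted p = 1.69e-13). For both genes the LIM1215-R1 libraries were the lowest of the 9. PRKD3, a protein kinase D, was at 3.19, 4.27 and 4.07 CPM in LIM1215-R1, at 17.5, 17.5 and 15.4 CPM in LIM1215-R2 and at a mean of 19.4 CPM in parental cells (log2 fold change 2.13, SE 0.13, adjusted p = 4.74e-12). GNG4, a G protein gamma subunit, had 0.736, 0.628 and 1 CPM in LIM1215-R1 against 6.78, 7 and 6.79 CPM in LIM1215-R2 (log2 fold change 3.10, SE 0.21, adjusted p = 4.2e-11), with a parental mean between these at 4.62 CPM.

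For other genes the LIM1215-R2 libraries were the highest of the 9. C6orf141, an open reading frame of unknown role, had 0.245, 0.753 and 0.125 CPM in LIM1215-R1, then 12.8, 11.2 and 11.4 CPM in LIM1215-R2 and a parental mean of 0.0919 CPM (log2 fold change 4.95, SE 0.25, adjusted p = 1.69e-13). COLGALT2, a collagen galactosyltransferase, had 1.53, 1.38 and 1.63 CPM in LIM1215-R1 against 12.7, 11.3 and 13.8 CPM in LIM1215-R2 (log2 fold change 3.04, SE 0.16, adjusted p = 3.75e-13). For COLGALT2, the parental mean of 0.394 CPM was below both. CDH13, which encodes the GPI-anchored T-cadherin, rose from 0.559 ± 0.220 to 4.56 ± 0.357 CPM (SD, n = 3 libraries each; log2 fold change 3.00, SE 0.26, adjusted p = 4.55e-09). S100A4, a calcium-binding protein of motile cells, rose from 3.96 ± 0.726 to 13.7 ± 0.791 CPM (log2 fold change 1.79, SE 0.13, adjusted p = 3.39e-10). NTSR1, the neurotensin receptor, was listed at 0 in each parental library and had means of 0.187 CPM in LIM1215-R1 against 1.45 CPM in LIM1215-R2 (log2 fold change 2.90, adjusted p = 3.86e-05). IL1R1, the signalling receptor of interleukin-1, had means of 0.228 and 1.60 CPM, with a log2 fold change of 2.76 (adjusted p = 1.63e-05). The potassium channel subunit KCNS3 had the largest fitted log2 fold change of the increases (5.07, SE 0.48, adjusted p = 1.92e-08), from 4 counts in all LIM1215-R1 libraries to 147 in LIM1215-R2. LIM1215-parental cells had 71 counts of KCNS3, a mean of 1.40 CPM. The remaining 2 of the 12 largest increases were the uncharacterised LOC105379362 and LOC101448202.

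PLEKHS1, a pleckstrin homology domain protein, was the single gene with at least 10 counts in every library of a line and 0 counts in every library of the other. LIM1215-R1 libraries had 8.65, 7.53 and 8.26 CPM, a total of 393 counts, and LIM1215-R2 libraries had none. With a floor of 3 counts over the LIM1215-R2 libraries, which is 0.0621 CPM, it was at least 131-fold lower (adjusted p = 1.69e-13). LIM1215-parental cells held a low level between these, with 0.885, 0.650 and 0.683 CPM.

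KCND3, a voltage-gated potassium channel of the Kv4 class, was at 18.4, 18.1 and 18.7 CPM in LIM1215-R1 and at 1.96, 1.3 and 1.5 CPM in LIM1215-R2 (log2 fold change -3.53, SE 0.15, adjusted p = 3.59e-15). LIM1215-parental cells had 15.4, 13.7 and 15.8 CPM, and the LIM1215-R2 libraries were the lowest of the 9. LIM1215-R2 was also the lowest of the 3 lines for GNAI1, an inhibitory G protein alpha subunit, with 5.95, 4.39 and 5.07 CPM in LIM1215-R1, then 0.535, 0.310 and 0.457 CPM in LIM1215-R2 and a parental mean of 5.82 CPM (log2 fold change -3.54, SE 0.27, adjusted p = 2.77e-10). MAP7D2, a microtubule-associated protein, had 49.6, 44.7 and 41.2 CPM in LIM1215-R1, then 7.61, 7.49 and 7.38 CPM in LIM1215-R2 and 41.8 CPM in parental cells (log2 fold change -2.59, SE 0.09, adjusted p = 2.33e-16). NME4, the mitochondrial nucleoside diphosphate kinase, was at means of 25.3, 25.0 and 6.88 CPM in parental, LIM1215-R1 and LIM1215-R2 cells (log2 fold change -1.87, adjusted p = 2.41e-12), and PFN2, a profilin, at 12.8, 18.0 and 5.28 CPM (log2 fold change -1.77, adjusted p = 1.03e-11).

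In a further group of decreases the LIM1215-R1 libraries were the highest of the 9. AFAP1L1, an actin filament-associated adaptor, had 6.99, 6.34 and 7.82 CPM in LIM1215-R1 against 0.476, 0.619 and 0.719 CPM in LIM1215-R2 (log2 fold change -3.54, SE 0.22, adjusted p = 1.3e-11) and a parental mean of 0.560 CPM. TAGLN, the actin-binding protein transgelin, was at 15.8, 17.1 and 15.6 CPM in LIM1215-R1, then 3.03, 3.04 and 2.74 CPM in LIM1215-R2 and 3.29 CPM in parental cells (log2 fold change -2.46, SE 0.13, adjusted p = 2.81e-13). EDN3, a vasoactive peptide of the endothelin family, had 3.07, 2.82 and 3.88 CPM in LIM1215-R1 against 0.297, 0 and 0.131 CPM in LIM1215-R2 (log2 fold change -4.42, SE 0.42, adjusted p = 2.16e-08). NGFR, the low-affinity neurotrophin receptor, was at 1.96, 1.44 and 0.751 CPM in LIM1215-R1, was detected with 4 counts over the LIM1215-R2 libraries and was listed at 0 in parental cells (log2 fold change -3.95, SE 0.57, adjusted p = 1.72e-05). HLA-DQB1, an MHC class II chain, had 4.17, 3.2 and 4 CPM in LIM1215-R1 against 0.178, 0.248 and 0.0653 CPM in LIM1215-R2 (log2 fold change -4.46, SE 0.35, adjusted p = 7.29e-10). SPRR2A, a cornified envelope precursor, and ST8SIA6, a sialyltransferase, had log2 fold changes of -3.80 and -3.76, with parental means of 0.123 and 0.116 CPM. Other decreases had their highest level in parental cells or overlapped with them. PRXL2A, a peroxiredoxin-like protein, and AGPAT4, an acyltransferase of phosphatidic acid synthesis, fell by 3.57 and 3.32 on the log2 scale, and both were higher in parental cells (5.90 and 3.09 CPM) than in either resistant line. PCOLCE2, a procollagen processing enhancer, had a log2 fold change of -3.43 and a parental mean of 0.934 CPM, with parental and LIM1215-R1 libraries that overlapped. All 24 genes ranked by size here kept their call in every fit that left out 1 of the 6 libraries.

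**Figure D2:**
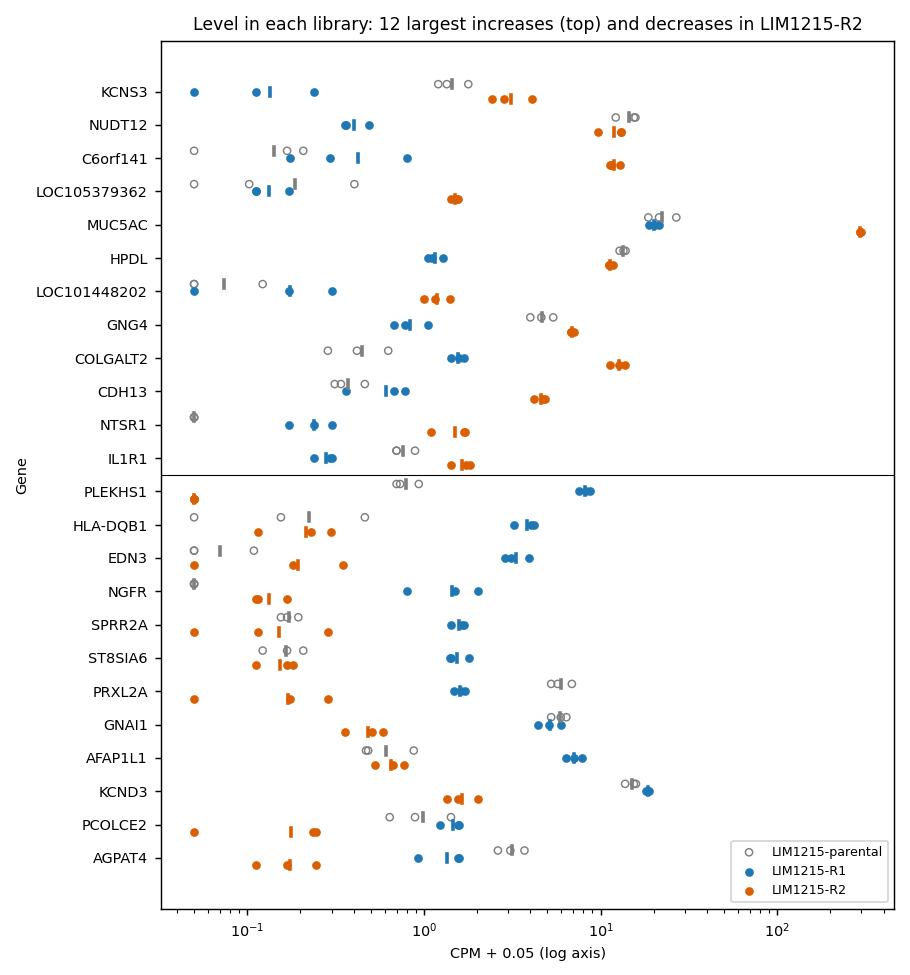
Level in each of the 9 libraries (x axis, CPM + 0.05, log axis) of the 12 DEGs with the largest increase (above the line) and the 12 with the largest decrease in LIM1215-R2, among those at 1 CPM or more in the higher line; points are libraries and ticks are means. LIM1215-R1 and LIM1215-R2 points do not overlap for any gene, which was a condition of the choice and held for all 155 DEGs. Parental points lie near LIM1215-R2 for NUDT12 and HPDL and near LIM1215-R1 for MUC5AC and KCND3.

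The upstream sequences of 4 of these genes are shown because they cover both directions and the gene without counts in LIM1215-R2. Each is the 250 bases before the annotated start (RefSeq, GRCh38.p14), written 5′ to 3′ on the strand of the gene, with CG dinucleotides in capitals.
PLEKHS1, chr10:113751432-113751681, plus strand: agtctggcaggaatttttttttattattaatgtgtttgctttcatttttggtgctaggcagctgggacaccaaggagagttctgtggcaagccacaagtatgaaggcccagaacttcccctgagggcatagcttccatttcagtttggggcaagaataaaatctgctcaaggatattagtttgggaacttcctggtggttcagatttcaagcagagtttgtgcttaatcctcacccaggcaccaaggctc
KCND3, chr1:111989669-111989918, minus strand: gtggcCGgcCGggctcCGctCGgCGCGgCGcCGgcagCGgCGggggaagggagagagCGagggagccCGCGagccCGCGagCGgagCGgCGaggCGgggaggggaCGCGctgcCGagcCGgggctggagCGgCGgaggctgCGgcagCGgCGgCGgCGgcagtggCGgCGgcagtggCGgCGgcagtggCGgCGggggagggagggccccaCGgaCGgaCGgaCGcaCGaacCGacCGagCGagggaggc
KCNS3, chr2:17877597-17877846, plus strand: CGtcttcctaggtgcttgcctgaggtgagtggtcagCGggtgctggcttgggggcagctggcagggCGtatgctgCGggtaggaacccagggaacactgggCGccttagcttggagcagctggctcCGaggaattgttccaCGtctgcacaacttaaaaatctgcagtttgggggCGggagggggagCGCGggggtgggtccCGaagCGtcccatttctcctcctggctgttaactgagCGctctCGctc
C6orf141, chr6:49550418-49550667, plus strand: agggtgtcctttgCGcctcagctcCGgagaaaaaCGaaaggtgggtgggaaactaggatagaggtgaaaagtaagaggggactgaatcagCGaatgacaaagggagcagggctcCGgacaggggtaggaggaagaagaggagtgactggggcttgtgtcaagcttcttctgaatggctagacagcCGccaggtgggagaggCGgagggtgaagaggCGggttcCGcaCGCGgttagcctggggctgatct
The window of PLEKHS1 held 0 CG dinucleotides and that of KCND3 held 44, while KCNS3 had 14 and C6orf141 had 11. Over the 300 bases from 250 before to 50 after the start, which 11999 genes tested had in the table, a ratio of observed to expected CG above 0.6 was found for 77.8% of all genes tested, 65.4% of 26 DEGs higher and 56.4% of 78 DEGs lower in LIM1215-R2. The letters TATAAA, on either strand, stood in 6.25% of the windows of genes tested, 11.5% of those of the higher and 10.3% of those of the lower DEGs.

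The parental levels of the 155 DEGs are given as a description, since LIM1215-parental libraries were not part of the test. The parental mean lay between the means of the resistant lines for 62 DEGs, above both for 36 and below both for 57. Of the 44 DEGs higher in LIM1215-R2, the parental mean was nearer to LIM1215-R1 for 28 and nearer to LIM1215-R2 for 16. Of the 111 lower ones, it was nearer to LIM1215-R1 for 46 and nearer to LIM1215-R2 for 65. NPNT, the integrin ligand nephronectin, was at a parental mean of 54.6 CPM and at 2.74 and 0.367 CPM in LIM1215-R1 and LIM1215-R2. APCDD1, an inhibitor of Wnt signalling, went the other way, listed at 0 in each parental library, at 21.2, 21.8 and 25.2 CPM in LIM1215-R1 and at 4.28, 3.96 and 4.57 CPM in LIM1215-R2 (log2 fold change between the lines -2.42, SE 0.12, adjusted p = 1.03e-13).

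**Figure D3:**
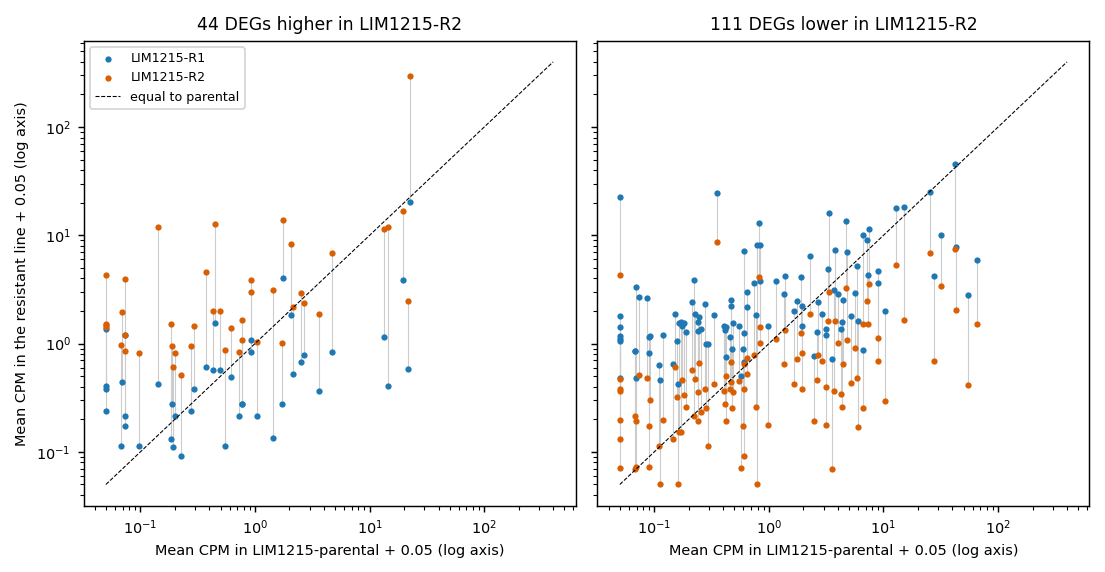
Mean CPM + 0.05 in LIM1215-parental (x axis) and in each resistant line (y axis, both log axes) for the 44 DEGs higher (left) and the 111 lower (right) in LIM1215-R2, with a grey line joining the 2 resistant values of a gene and a dashed line of equal level. Grey lines cross the dashed line for the 62 DEGs whose parental mean lies between the lines.

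Some mucin and goblet cell genes, MUC5AC foremost, were higher in LIM1215-R2. This list and the lists below were chosen with earlier results of these data known, and several hold genes named above. Their counts are therefore no separate support. Of 18 tested genes for gel-forming mucins and goblet cells, 7 were higher, 1 was lower and 10 did not pass in LIM1215-R2 at any size of change, against 3.68% higher and 4.44% lower among all genes tested, with a median log2 fold change of 0.45. The higher ones were MUC5AC, MUC6, REG4, MUC5B, SPINK4, FCGBP and AGR2. REG4, a secreted lectin of goblet and endocrine cells, was at 12.9, 16.9 and 14.7 CPM in LIM1215-R1 and at 29.4, 31.8 and 34.7 CPM in LIM1215-R2 (log2 fold change 1.10, SE 0.10, adjusted p = 5.26e-09). Its parental libraries had 98.5, 104 and 99.1 CPM, above both. MUC5B rose from 33.3 ± 3.06 to 56.4 ± 2.37 CPM (log2 fold change 0.76, adjusted p = 2.07e-08) and AGR2, a chaperone of mucin folding, from 162 ± 5.96 to 207 ± 8.23 CPM (log2 fold change 0.35, adjusted p = 1.43e-05). MUC6 was at 0.353 and 1.36 CPM (log2 fold change 1.92, adjusted p = 0.00111) but did not pass once LIM1215-R2 replicate 1 was left out (adjusted p = 0.0103). SPINK4 lost it without LIM1215-R1 replicate 3 or LIM1215-R2 replicate 2 or 3 (adjusted p up to 0.0314), and FCGBP without LIM1215-R1 replicate 1 or 3 or LIM1215-R2 replicate 1 or 2 (adjusted p up to 0.0410). The transcription factor CREB3L1 was the lower one (log2 fold change -1.27, adjusted p = 6.46e-08), while the main intestinal mucin MUC2 was at 2.72 and 2.06 CPM and did not pass (adjusted p = 0.274). Of 5 tested membrane-bound mucins, 3 were lower and 0 higher by the same test, and whether the classes differ was not tested. MUC13, a mucin of the intestinal brush border, was at 666, 684 and 676 CPM in LIM1215-R1 and at 353, 392 and 363 CPM in LIM1215-R2 (log2 fold change -0.88, SE 0.04, adjusted p = 1.69e-13), and MUC3A had a log2 fold change of -0.29 (adjusted p = 0.000363). MUC1 was at 1.93 and 0.846 CPM (log2 fold change -1.18, adjusted p = 0.00443), and its call was lost without any 1 of LIM1215-R1 replicates 2 and 3 and LIM1215-R2 replicates 1 to 3 (adjusted p up to 0.0213).

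The members of the p53 target list that passed were all lower in LIM1215-R2. Of its 28 tested genes, 19 were lower and 0 higher in LIM1215-R2, against 4.44% lower and 3.68% higher among all genes tested, and only PMAIP1 had a log2 fold change above 0. The median was -0.39, so the shifts were small, and no member was a DEG. When single libraries were left out, 15 to 20 members were lower, with 15 without LIM1215-R2 replicate 2. CDKN1A, which encodes the cell cycle inhibitor p21, was at 373, 421 and 368 CPM in LIM1215-R1 and at 210, 220 and 216 CPM in LIM1215-R2 (log2 fold change -0.85, SE 0.05, adjusted p = 3.33e-12). PHLDA3, an AKT repressor, was at 58.3, 70.6 and 67.1 CPM against 37.2, 38.1 and 40.7 CPM (log2 fold change -0.76, SE 0.07, adjusted p = 2.02e-08). MDM2, the ubiquitin ligase that limits p53, was at 332, 294 and 314 CPM against 249, 233 and 221 CPM (log2 fold change -0.42, SE 0.05, adjusted p = 1.14e-06). None of these groups overlapped. CYFIP2, FDXR, GADD45A, SESN1, SESN2, DDB2 and ZMAT3 were lower with log2 fold changes from -0.71 to -0.39. Of the pro-apoptotic members, the death receptor FAS was at 35.5 ± 2.72 and 24.4 ± 1.32 CPM (log2 fold change -0.54, adjusted p = 1.88e-05) and BBC3, which encodes PUMA, at 12.9 ± 0.472 and 8.43 ± 1.20 CPM (log2 fold change -0.62, adjusted p = 0.000441). PMAIP1, which encodes NOXA, was at 24.4 and 26.3 CPM (adjusted p = 0.57). For CDKN1A and PHLDA3 the parental means of 111 and 27.9 CPM were below both resistant lines, and for MDM2 the parental mean of 224 CPM was close to LIM1215-R2.

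Of 24 chemokine and cytokine genes tested, 12 were lower in LIM1215-R2, 0 were higher and 12 did not pass, against 4.44% lower and 3.68% higher among all genes tested. Their median log2 fold change was -0.47. CCL20, the ligand of CCR6 and the single DEG of the list, was at 11.6, 11 and 11.6 CPM in LIM1215-R1 and at 3.98, 3.41 and 3.14 CPM in LIM1215-R2 (log2 fold change -1.70, SE 0.14, adjusted p = 8.82e-10). CXCL8, the neutrophil attractant interleukin-8, was at 114, 97.8 and 109 CPM against 70.1, 68.4 and 60.8 CPM (log2 fold change -0.69, SE 0.06, adjusted p = 1.61e-08). CXCL5 was at 70.5 ± 3.95 and 36.5 ± 1.79 CPM (log2 fold change -0.96, adjusted p = 5.3e-11), CXCL2 at 40.3 and 24.7 CPM (-0.71, adjusted p = 1.82e-07), CXCL1 at 208 and 155 CPM (-0.44, adjusted p = 3.58e-07) and CXCL3 at 118 and 93.7 CPM (-0.33, adjusted p = 0.000121), all ligands of CXCR2. CXCL14, listed at 0 in each parental library, was at 14.7, 13.9 and 12.5 CPM in LIM1215-R1 and at 5.29, 5.57 and 5.42 CPM in LIM1215-R2 (log2 fold change -1.34, adjusted p = 7.15e-09). CSF1, a macrophage growth factor, IL18 and IL32 had log2 fold changes of -1.17, -0.99 and -0.39. Of the members that did not pass, the cytokine LIF was at 392 and 366 CPM (adjusted p = 0.112) and IL33 at 22.2 and 19.7 CPM (adjusted p = 0.302).

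The 5 CXCR2 ligands that fell share a stretch of upstream sequence, and their 250 bases before the start are shown for that reason, with the NF-kappaB type motif GGAATTTCC in capitals (RefSeq, GRCh38.p14, 5′ to 3′ on the strand of the gene).
CXCL1, chr4:73869143-73869392, plus strand: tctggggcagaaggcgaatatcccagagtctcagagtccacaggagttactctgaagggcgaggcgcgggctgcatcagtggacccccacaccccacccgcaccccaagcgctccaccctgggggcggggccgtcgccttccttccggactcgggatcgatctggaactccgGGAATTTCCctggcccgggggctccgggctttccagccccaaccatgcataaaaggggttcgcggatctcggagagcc
CXCL2, chr4:74099196-74099445, minus strand: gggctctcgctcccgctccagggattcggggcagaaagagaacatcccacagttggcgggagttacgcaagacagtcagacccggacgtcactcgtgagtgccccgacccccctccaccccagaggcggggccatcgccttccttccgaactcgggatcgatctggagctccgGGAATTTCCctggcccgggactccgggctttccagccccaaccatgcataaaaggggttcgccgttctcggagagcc
CXCL3, chr4:74038690-74038939, minus strand: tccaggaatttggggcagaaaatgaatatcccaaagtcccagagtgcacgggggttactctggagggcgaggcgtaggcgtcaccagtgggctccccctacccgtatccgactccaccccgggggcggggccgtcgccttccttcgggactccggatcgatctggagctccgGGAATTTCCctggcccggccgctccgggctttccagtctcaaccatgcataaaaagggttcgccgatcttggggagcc
CXCL5, chr4:73998678-73998927, minus strand: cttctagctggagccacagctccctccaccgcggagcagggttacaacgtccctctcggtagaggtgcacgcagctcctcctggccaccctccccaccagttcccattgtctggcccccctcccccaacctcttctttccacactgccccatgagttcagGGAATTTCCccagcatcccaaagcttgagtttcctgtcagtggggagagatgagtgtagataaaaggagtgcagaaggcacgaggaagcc
CXCL8, chr4:73740319-73740568, plus strand: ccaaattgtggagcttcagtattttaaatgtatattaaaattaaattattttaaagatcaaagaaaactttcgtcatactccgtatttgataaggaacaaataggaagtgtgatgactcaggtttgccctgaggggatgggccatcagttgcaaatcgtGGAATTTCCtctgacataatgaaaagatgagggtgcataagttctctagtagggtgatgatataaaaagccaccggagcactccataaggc
The motif began 77 or 78 bases before the start in CXCL1, CXCL2 and CXCL3, which are neighbouring paralogs with near-identical sequence around it, and 90 and 91 bases before it in CXCL5 and CXCL8. It stood in 5 of the 9 windows of lower chemokine and cytokine genes that were in the table and in 5 of 18 of the tested list members, compared with 0.458% of the windows of all genes tested and 0.472% of all 27305 windows. Related genes share this sequence by descent, so these are not independent matches. Of 4 other motifs searched on both strands in the same windows, TGACTCA (AP-1) stood in 2 of these 9 windows and 3.37% of those of all genes tested, TATAAA in 2 of 9 and 6.25%, and TCACCCCAC (sterol regulatory element) and CACGTG (E-box) in 0 of 9, against 0.358% and 9.78%. Motifs other than TATAAA were chosen after the values had been seen, and a match is a description of letters only.

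Sterol and fatty acid synthesis genes that were lower in LIM1215-R2 were so by small amounts. Of 32 tested, 15 were lower, 1 was higher and 16 did not pass, with a median log2 fold change of -0.20 and no DEG, against 4.44% lower and 3.68% higher among all genes tested. INSIG1, the sterol-sensing brake on cholesterol synthesis, was at 107, 106 and 102 CPM in LIM1215-R1 and at 68.6, 62.5 and 67.3 CPM in LIM1215-R2 (log2 fold change -0.67, SE 0.06, adjusted p = 2.22e-09). SCD, the stearoyl-CoA desaturase, was at 171, 174 and 174 CPM against 115, 114 and 112 CPM (log2 fold change -0.61, SE 0.05, adjusted p = 7.31e-10). IDI1, DHCR7, MVD, FDFT1 and HMGCS1, enzymes of the mevalonate and cholesterol pathway, had log2 fold changes of -0.48, -0.40, -0.39, -0.35 and -0.30. The count of lower genes fell to 8 without LIM1215-R1 replicate 3, to 7 without LIM1215-R2 replicate 2 and to 8 without LIM1215-R2 replicate 3, and it was 12 with scaling to total counts.

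**Figure D4:**
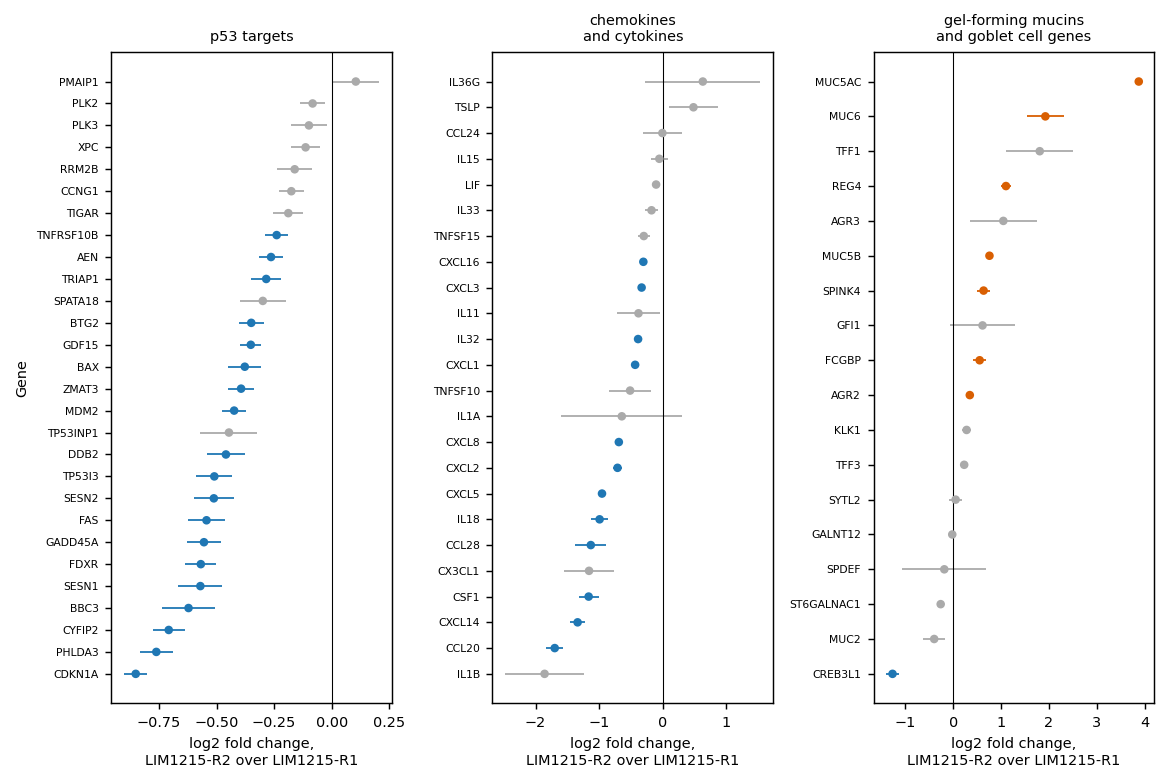
The log2 fold change of LIM1215-R2 over LIM1215-R1 (x axis) with its SE (lines) for each tested gene (y axis) of the p53 target, chemokine and cytokine, and mucin and goblet cell lists, in orange where higher and in blue where lower in LIM1215-R2 (adjusted p up to 0.01), and in grey otherwise. All p53 targets but PMAIP1 lie below 0, and MUC5AC lies at 3.87 in the mucin list.

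Of 12 complement genes tested, 6 were lower in LIM1215-R2 and 1 was higher, against 4.44% and 3.68% of all genes tested. C3, the central complement component, was at 4.17, 3.51 and 3 CPM in LIM1215-R1 and at 0.773, 0.372 and 1.05 CPM in LIM1215-R2 (log2 fold change -2.29, SE 0.28, adjusted p = 1.65e-06). CD55, a membrane inhibitor of complement, was at 349 ± 15.0 and 225 ± 6.88 CPM (log2 fold change -0.64, adjusted p = 1.34e-10), and C4BPB, a soluble inhibitor, at 105 and 72.4 CPM. C5 was higher, at 5.23 and 8.36 CPM (log2 fold change 0.67, adjusted p = 0.000679). Without LIM1215-R1 replicate 3, 3 complement genes were lower.

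The MHC class II list also holds regulators such as RFX5, and 13 of its 21 genes were at 0 in the 6 libraries. Of 8 tested, 3 were lower (HLA-DRB1, HLA-DQB1 and RFX5) and 0 higher, against the same 4.44% and 3.68%. HLA-DRB1 was at 6.26, 6.72 and 6.38 CPM in LIM1215-R1 and at 2.08, 1.67 and 1.7 CPM in LIM1215-R2 (log2 fold change -1.82, SE 0.18, adjusted p = 2.69e-08), beside HLA-DQB1 on chromosome 6. RFX5, a transcription factor of the class II promoters, was at 60.7 and 48.2 CPM (log2 fold change -0.34, adjusted p = 0.000255). HLA genes are similar to each other, and how reads were shared among them was not tested. Of 39 interferon response genes tested, 4 were lower and 1 was higher, near the 8.12% of all genes that passed, and 2 were lower without LIM1215-R2 replicate 1 or without LIM1215-R2 replicate 2. BST2, the virus-tethering protein tetherin, was at 2.02, 1.44 and 1.81 CPM in LIM1215-R1 and at 0.476, 0.124 and 0.653 CPM in LIM1215-R2 (log2 fold change -2.07, SE 0.38, adjusted p = 0.00039). GBP2, a guanylate-binding protein, was at 5.22 and 2.68 CPM (log2 fold change -0.97, adjusted p = 0.000243). GBP1 had a log2 fold change of -2.14 (adjusted p = 0.00242) but lost its call without LIM1215-R1 replicate 1 and without LIM1215-R2 replicate 1 or 2 (adjusted p up to 0.0256). Only 1 of 18 MHC class I genes was higher and 1 lower, CANX and HLA-B, with log2 fold changes of 0.16 and -0.15, and each lost its call in 5 of the 6 fits that left out a library (adjusted p up to 0.0887 and 0.069).

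EGFR, the target of cetuximab, was at 224, 239 and 228 CPM in LIM1215-R1 and at 297, 292 and 268 CPM in LIM1215-R2 (log2 fold change 0.31, SE 0.05, adjusted p = 5.21e-05), with a parental mean of 277 CPM. Its ligand EREG, epiregulin, was at 303, 267 and 291 CPM against 143, 145 and 130 CPM (log2 fold change -1.05, SE 0.05, adjusted p = 1.69e-13). Both resistant lines were above the parental mean of 34.5 CPM. AREG, amphiregulin, was at 81.5 ± 4.19 and 63.5 ± 0.234 CPM (log2 fold change -0.36, adjusted p = 6.54e-05), also above the parental 19.9 CPM. ERBB2 was at 179 and 174 CPM (adjusted p = 0.645), and ERBB3 at 226 and 249 CPM (adjusted p = 0.0464). Of 17 HER receptors and ligands tested, 1 was higher and 3 were lower, against 3.68% and 4.44% of all genes tested. HRAS was listed with a single count over the 6 libraries and was not tested. The study reports HRAS mutations read from RNA sequencing of these lines, and HRAS protein in LIM1215-R1 by western blot. The count is therefore not read as absence of HRAS transcripts, and the reason for it was not tested.

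Of 31 tested genes of the RAS-RAF-MEK-ERK core, 2 were higher and 1 lower, near the background of 8.12%. These counts moved between 0 higher (without LIM1215-R1 replicate 3) and 3 higher (without LIM1215-R2 replicate 3), and between 0 lower (without LIM1215-R2 replicate 2) and 3 lower (without LIM1215-R1 replicate 1). RASA3, a GTPase-activating protein for RAS, was the DEG, with 0.245, 0.565 and 0.188 CPM in LIM1215-R1 against 1.61, 1.36 and 1.24 CPM in LIM1215-R2 (log2 fold change 2.05, SE 0.40, adjusted p = 0.000784), but it did not pass once LIM1215-R1 replicate 3 was left out (adjusted p = 0.0103). Feedback and output genes of the cascade were split, with 3 higher and 5 lower of 30, against 3.68% and 4.44% of all genes tested. PHLDA1 was at 108, 104 and 106 CPM in LIM1215-R1 and at 185, 180 and 170 CPM in LIM1215-R2 (log2 fold change 0.75, SE 0.05, adjusted p = 3.82e-11). SPRY4, an inhibitor of receptor signalling, rose from 49.6 to 67.9 CPM (log2 fold change 0.45, adjusted p = 5.15e-06). The ERK phosphatases DUSP4 and DUSP5 fell by 0.29 and 0.37 on the log2 scale (adjusted p = 0.000601 and 0.000266). MYC was at 292 and 286 CPM (adjusted p = 0.698).

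Other receptor tyrosine kinases had 6 higher and 2 lower of 25 tested, against 3.68% and 4.44% of all genes tested. IGF1R, the insulin-like growth factor receptor, was at 19.3, 18.2 and 18.0 CPM in LIM1215-R1 and at 29.4, 33.0 and 28.2 CPM in LIM1215-R2 (log2 fold change 0.70, SE 0.08, adjusted p = 1.35e-06), with a parental mean of 34.2 CPM. FGFR1 rose from 34.6 ± 2.08 to 51.1 ± 1.91 CPM (log2 fold change 0.56, adjusted p = 1.91e-06), below the parental 87.3 CPM. The ephrin receptors EPHB3 and EPHB2 had log2 fold changes of 0.60 and 0.26, while EPHA1 and EPHA2 had -0.40 and -0.25. FLT1, a VEGF receptor and the DEG of the list, was at 0.228 and 1.04 CPM (log2 fold change 2.14, adjusted p = 0.0025), and its call was lost without LIM1215-R1 replicate 2 and without LIM1215-R2 replicate 1 or 3 (adjusted p up to 0.0185).

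Wnt and stem cell genes moved in both directions. Of 29 tested, 6 were higher and 4 lower, against 3.68% and 4.44% of all genes tested, and the 3 DEGs were all lower. These were the secreted or membrane antagonists and modulators APCDD1, NOTUM and SMOC2. NOTUM, an enzyme that inactivates Wnt ligands, was at 1.23, 1.13 and 1.63 CPM in LIM1215-R1 and at 0.297, 0.186 and 0.0653 CPM in LIM1215-R2 (log2 fold change -2.79, SE 0.46, adjusted p = 0.000117). SMOC2, a matrix protein of stem cells, was at 23.7, 25.9 and 24.7 CPM against 8.03, 8.80 and 9.14 CPM (log2 fold change -1.52, SE 0.10, adjusted p = 1.49e-11), and its parental mean was 0.304 CPM. SMOC2 did not keep a fold change past the threshold in every fit that left out a library (adjusted p up to 7.17e-09). The stem cell receptor LGR5 was higher, at 561, 543 and 568 CPM against 725, 743 and 697 CPM (log2 fold change 0.37, SE 0.04, adjusted p = 2.37e-07), and TNFRSF19 rose from 14.8 to 23.9 CPM (log2 fold change 0.69, adjusted p = 5.41e-06). The transcription factor TCF7 fell from 155 to 127 CPM (log2 fold change -0.29, adjusted p = 0.000304).

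Of 19 Notch pathway genes tested, 4 were higher and 1 lower, against 3.68% and 4.44% of all genes tested. HEY2, a transcriptional repressor induced by Notch, was at 2.02, 1.76 and 1.56 CPM in LIM1215-R1, at 8.62, 7.68 and 8.43 CPM in LIM1215-R2 and at a parental mean of 2.02 CPM (log2 fold change 2.20, SE 0.17, adjusted p = 3.73e-10). LFNG, which glycosylates Notch, rose from 25.9 to 35.5 CPM (log2 fold change 0.45, adjusted p = 0.000121). Without LIM1215-R1 replicate 1, LIM1215-R2 replicate 1 or LIM1215-R2 replicate 3, 2 of the list were higher. Of 33 genes of the TGF-beta and BMP pathways, 4 were higher and 2 lower, against the same shares of all genes tested. Among the higher ones were the target genes ID2 and ID3, with log2 fold changes of 0.30 and 0.41.

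Like the other lists, those of this paragraph were drawn up with earlier results of these data known. They hold genes named above among the largest changes, so their counts are no separate support. Among all genes tested, 4.44% were lower and 3.68% higher. Neurotrophin and endothelin genes had 4 lower and 0 higher of 8 tested. Beside NGFR and EDN3, the sorting receptors SORCS2 and SORT1 were at 33.6 and 22.6 CPM and at 132 and 106 CPM in LIM1215-R1 and LIM1215-R2 (log2 fold changes -0.58 and -0.33, adjusted p = 3.07e-05 and 8.27e-05). With at least 10 counts required in every library, 2 were called lower. Of 13 voltage-gated potassium channel subunits tested, 3 were higher and 2 lower, including the DEGs KCNS3 and KCND3 in opposite directions. Of 20 NUDT hydrolases, NUDT12 was the single gene higher and NUDT4 the single lower one, near the 8.12% of all genes tested that passed. NUDT4 did not pass without LIM1215-R1 replicate 3 or LIM1215-R2 replicate 2 or 3 (adjusted p up to 0.0376).

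Genes listed for the absorptive lineage had 5 lower and 1 higher of 19 tested, against 4.44% and 3.68% of all genes tested. The list also holds alkaline phosphatases other than the intestinal one, so its count is not one of enterocyte genes alone. ALPP, the placental alkaline phosphatase, was at 86.5, 94.3 and 88.1 CPM in LIM1215-R1 and at 46.6, 50.1 and 47.1 CPM in LIM1215-R2 (log2 fold change -0.91, SE 0.06, adjusted p = 3.34e-11). Its close paralog ALPG, the germ-cell form, had a log2 fold change of -1.31 (adjusted p = 1.08e-05), with reads that may be shared. MYO1A, the brush border myosin, fell from 40.1 to 24.6 CPM (log2 fold change -0.71, adjusted p = 7.05e-08). Without LIM1215-R2 replicate 1, 3 were lower. Of 22 intestinal identity transcription factors, 3 were higher and 1 was lower, against the same shares of all genes tested. Among the higher ones were PROX1 (log2 fold change 0.68, adjusted p = 4.22e-07) and MYB (0.28, adjusted p = 0.000258), and the lower one was ELF3 (-0.42, adjusted p = 1.3e-06). CDX2 was at 305 and 283 CPM and did not pass (adjusted p = 0.0892).

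Xenobiotic and steroid metabolism genes had 9 lower and 3 higher of 32 tested. For this list and the transporters below, the shares of all genes tested were 4.44% lower and 3.68% higher. The lower ones numbered 4 without LIM1215-R1 replicate 3, 4 without LIM1215-R2 replicate 1 and 5 without LIM1215-R2 replicate 2. AKR1B10, an aldo-keto reductase, was at 5.64, 6.21 and 6.38 CPM in LIM1215-R1 and at 2.79, 1.55 and 2.09 CPM in LIM1215-R2 (2.83-fold lower, adjusted p = 2.43e-06), just short of a DEG. AKR1C3 of the same family was at 2.52, 4.14 and 4.13 CPM against 5.89, 8.61 and 8.75 CPM (log2 fold change 1.10, SE 0.18, adjusted p = 0.000115), so that these related enzymes moved in opposite directions. GSTM3, a glutathione transferase, fell from 45.8 to 27.3 CPM (log2 fold change -0.75, adjusted p = 2.01e-08). Of 15 ABC efflux transporters, 0 were higher and 0 lower in edgeR's quasi-likelihood test and in DESeq2's Wald test, with 2 at an unadjusted p under 0.05, while 1 was lower without a filter on low counts and with a replicate block, and 1 was higher and 1 lower without LIM1215-R1 replicate 2.

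All lists in this paragraph stand beside 4.44% lower and 3.68% higher among all genes tested. Of 24 integrins and laminins tested, 6 were lower and 2 higher, and 3 were lower without LIM1215-R1 replicate 3. They were led by the laminin chains LAMB3 (log2 fold change -0.40) and LAMA3 (-0.59). TIMP3, a metalloproteinase inhibitor, was at 84.3, 90.9 and 83.4 CPM in LIM1215-R1 and at 41.5, 39.1 and 42.7 CPM in LIM1215-R2 (log2 fold change -1.07, SE 0.06, adjusted p = 2.32e-12), and 2 of 10 genes of its list were lower and 0 higher. Of 16 mesenchymal state genes, 2 were higher and 1 lower. S100A4 was among the former, and CDH11, a mesenchymal cadherin, fell from 4.15 to 1.28 CPM (log2 fold change -1.69, SE 0.21, adjusted p = 2.36e-06). Of 31 epithelial adhesion and keratin genes, 5 were lower and 0 higher, led by JUP, plakoglobin (log2 fold change -0.43, adjusted p = 2.21e-06), and 2 to 8 were lower when single libraries were left out.

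The remaining lists are to be read against the 8.12% of all genes tested that passed in either direction, and the shorter ones rest on few genes. Of 37 proliferation genes, 2 were higher and 4 lower, with a median log2 fold change of 0.00 to 2 decimals, and 1 to 6 were lower when single libraries were left out. Of 20 apoptosis regulators listed by the study, which took them from the KEGG apoptosis pathway, 4 were lower and 0 higher, FAS, BBC3, BAX and TNFRSF10B, which are also p53 targets, and 2 were lower without LIM1215-R2 replicate 2. Of 20 HOX genes, HOXA7 was the DEG, at 2.49 and 0.390 CPM (log2 fold change -2.64, adjusted p = 1.24e-06). Of 7 carbonic anhydrases, CA8 and CA2 were lower, and CA2 lost its call in 5 of the 6 fits that left out a library (adjusted p up to 0.0274). Of 5 gastric and foregut genes, MUC5AC and MUC6 were higher, and of 3 cancer-testis and 3 enteroendocrine genes tested, 1 and 0 passed.

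**Figure D5:**
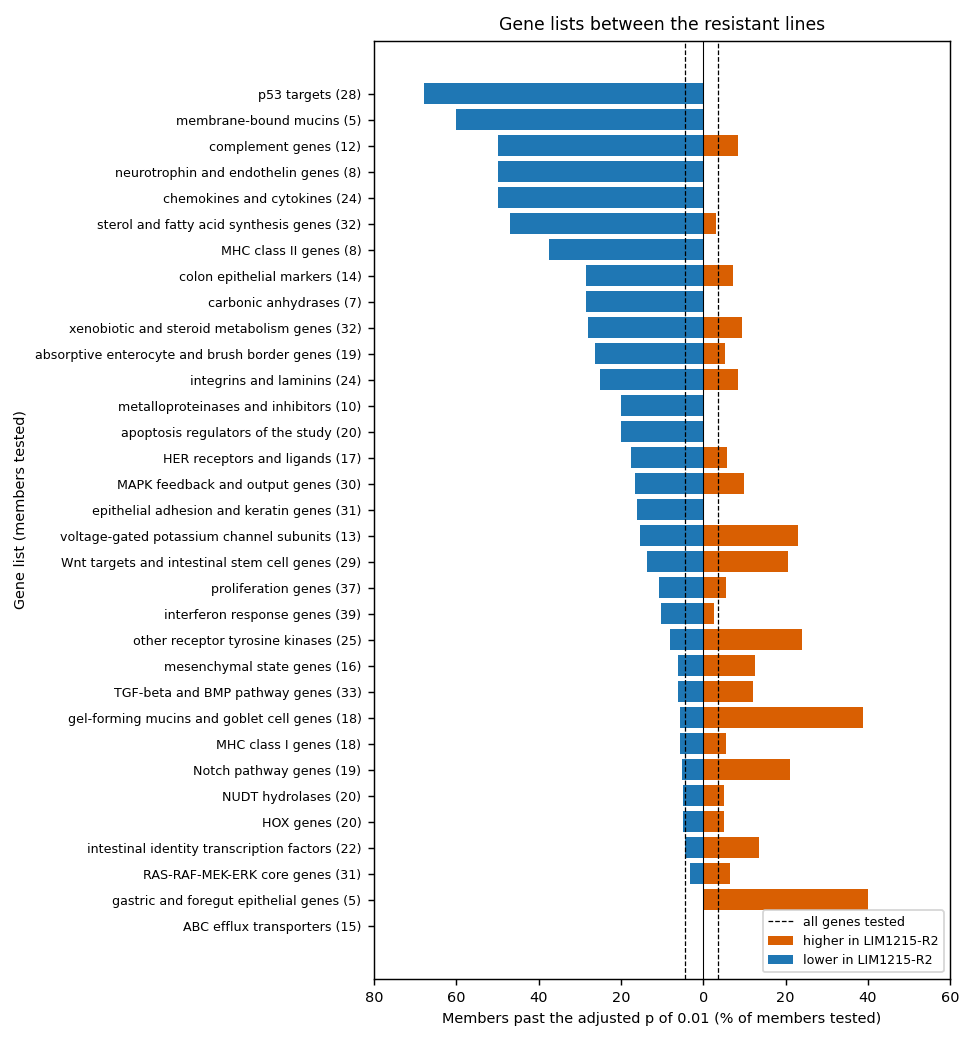
Share of the tested members of each list (y axis, number tested in parentheses) that were higher (right, orange) or lower (left, blue) in LIM1215-R2 with an adjusted p up to 0.01 (x axis, percent), with dashed lines at the shares of all genes tested, 3.68% higher and 4.44% lower. The list of p53 targets reaches 67.9% lower, and lists of under 10 members rest on few genes.

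The differences were spread over the chromosomes. Medians of the log2 fold change per chromosome lay between -0.05 on chromosome 11 and 0.06 on chromosome 13, in positions of GRCh38.p14. Chromosome 19 had 16 genes higher and 58 lower of 1098 (6.74% in either direction, against 8.12% of all genes tested). Chromosome 10 had 0 DEGs higher and 6 lower of 697 (0.861%, against 0.876% of all genes tested). Chromosomes 12, 15, 19 and 21 also had 0 DEGs higher, with 4, 3, 6 and 2 lower. In 251 windows of 50 neighbouring genes that averaged 10 counts or more, medians ranged from -0.12 to 0.16, and 8 exceeded 0.1 in size and 0 exceeded 0.2. No stretch held 3 DEGs with at most 1 other tested gene between neighbours, and 5 held a pair. MUC6 and MUC5AC (chromosome 11) rose together, and KCND3 with LINC01750 (chromosome 1), HLA-DRB1 with HLA-DQB1 (chromosome 6) and CD70, a ligand of the TNF family, with C3 (chromosome 19) fell together. NGFR and NXPH3 (chromosome 17) changed in opposite directions, with log2 fold changes of -3.95 and 1.88.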

How the data were processed

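RNA sequencing libraries (stranded, poly(A)-selected, paired-end) of LIM1215-R1 and LIM1215-R2 were used, 3 each, with the 3 LIM1215-parental libraries for levels only. The authors aligned reads to hg38 with STAR and counted them per gene with HTSeq 0.9.1 (reverse strand), and the deposited values are raw counts. The annotation is not given in the sources used here, and overlapping or near-identical genes can lose or share reads. Genes whose counts summed to 10 or more over the 6 libraries were fitted in edgeR 4.0.16 (R 4.3.3) by the quasi-likelihood test with TMM scaling, without covariates, and p-values were adjusted by Benjamini-Hochberg over all genes tested. SE is the absolute log2 fold change over the root of F. Levels are CPM with TMM scaling over the 9 libraries.

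Genes were named as the 12 largest increases and 12 largest decreases among DEGs at 1 CPM or more in the higher line. These also had to show no overlap between the libraries of the lines, which held for all 155 DEGs. The 10 DEGs of highest abundance and genes without counts in a line were named as well. MUC5AC, KCND3 and PLEKHS1 met more than 1 of these rules. Members of the 34 gene lists were named as examples. The genes, the 34 lists and the 2 marker lists were chosen with earlier results of these data known. Chromosome positions came from RefSeq (GRCh38.p14), by symbol. The code was tested on simulated data. Alternatives were no filter, a stricter filter, other scalings, DESeq2 1.42.0, a fold threshold of 1, glmTreat, all 9 libraries, a replicate block and each library left out in turn. Results for some genes are not reported here.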

Additional observations from a re-analysis of the deposited data

How the results depend on the processing

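The 155 DEGs (44 higher, 111 lower) became 38 (11 and 27) when at least 10 counts were required in every library, which removes genes silent in a line from the test. The 155 DEGs became 279 (79 and 200) at a log2 fold change threshold of 1 and 24 (10 and 14) when tested against the threshold of 1.5 with glmTreat. In DESeq2 they became 118 (31 and 87) with the Wald test and 3 (1 and 2) with shrunken fold changes. The study also shrank its fold changes in DESeq2, by a type it does not name, while the normal type was used here. Leaving out each library gave 125 to 153 DEGs (34 to 46 higher, 89 to 112 lower) and 755 to 1785 genes at any size (304 to 857 higher, 451 to 928 lower). DEGs kept their call in all 6 of these fits for 107 genes and lost it in at least 1 for 48. The counts at any size were 834 without LIM1215-R1 replicate 3, 812 without LIM1215-R2 replicate 1 and 755 without LIM1215-R2 replicate 2, and the cause was not tested. Scaling to total counts gave 1519 genes, 838 higher and 681 lower, against 650 and 786 with TMM.

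With the replicate number as a block there were 162 DEGs and 1834 genes at any size, 875 higher and 959 lower. Libraries with the same number correlated at 0.067, -0.0172 and 0.0147 in their deviations from the line means, so that the numbers were not taken as pairs. Of 936 counts per list and setting, 140 moved by over 1.5 times, and 0 gene calls reversed. When limited to genes averaging 10 counts or more, 5 of 23 chromosome medians moved by more than the spread between the 3 LIM1215-R2 libraries. That spread is the SD of the median, with each LIM1215-R2 library set against the LIM1215-R1 mean. No chromosome median shifted by more than 0.0166 on the log2 scale. The 3 libraries per line are technical replicates and limit every test here to the spread between libraries.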
